A study of Mus musculus with 11 samples.

Results

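The insulin receptor and mTOR signalling genes are 9 genes that carry the insulin signal from the cell surface to protein synthesis: Insr, Irs1, Irs2, Akt1, Akt2, Foxo1, Mtor, Rptor and Eif4ebp1. They were chosen by name as a pathway, with earlier results of these data known. Every probe set (a set of short probes on an Affymetrix array that reads 1 or more transcripts) whose only gene symbol is 1 of the 9 was taken. This gave 25 of the 45101 probe sets on the array and 9 of the 18194 genes named by them. Expression was measured in whole pancreas of female Balb/C mice, an inbred strain, at 30 days of age on 11 arrays. Dams ate an isocaloric diet with 8% protein (low protein) or one with 20% protein (control) while pregnant, and every dam ate the control diet from birth onwards. On each of days 1 to 5 after birth the pups received streptozotocin (STZ, a toxin that enters β cells through their glucose transporter) at 35 mg per kg of body weight, or the citrate buffer alone (sham). The groups were low protein STZ (3 arrays), low protein sham (3 arrays), control STZ (2 arrays, numbered 1 and 3) and control sham (3 arrays). The labels call the arrays of a group biological replicates and do not give dams or litters, so p-values measure the spread between these pups, and the effect of a diet cannot be told apart from that of the litters that received it.

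Insulin binding activates the receptor kinase INSR, which phosphorylates the adaptor proteins IRS1 and IRS2. These recruit phosphoinositide 3-kinase, and the lipid that it makes brings the AKT kinases to the membrane, where they are activated. AKT excludes the transcription factor FOXO1 from the nucleus and, by way of the TSC complex and RHEB, releases mTORC1, a kinase complex of MTOR and RAPTOR that also senses amino acids. Active mTORC1 phosphorylates 4E-BP1, the product of Eif4ebp1, which then lets go of the cap-binding factor eIF4E so that translation can start. The exocrine pancreas is among the tissues that make most protein, and β cells need IRS2 and AKT to keep their mass.

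Most RNA of a whole pancreas comes from acinar cells, which secrete digestive enzymes, and all 7 measured acinar markers lay above the limit set for dim probe sets in every group. Pdx1, Ins2 and Iapp transcripts of β cells were also measured, as the labelled tissue would have them. In such bulk RNA, fewer cells of a type and less RNA per cell cannot be told apart. Array medians lay between 7.92 and 7.97 on the log2 scale. Of the 25 probe sets, 24 had a mean over the 11 arrays above the dim limit of 6.87 and were tested among 27249 probe sets, while the dimmest Insr probe set, 1421380_at, averaged 6.27 and was not tested. The mean of the members was lowest on low protein STZ 1 (8.94) and highest on control sham 1 (9.20). The mean of all tested probe sets was also lowest (8.54) and highest (8.68) on these arrays. Control sham 3 had nearly the same overall mean (8.68) as control sham 1, with a member mean of 9.06. The part of the overall level of an array in the member values was not tested.

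No member passed an adjusted p of 0.05 in any of 7 comparisons. With limma and adjustment over all 27249 tested probe sets, 0 of 24 members and 0% of all tested probe sets passed in each. The clearest separation was that of Eif4ebp1, whose brightest probe set was 1.41-fold lower in low protein than in control diet pancreas, on average over injections. Its values in the 6 low protein pups were each under the lowest of the 5 control diet pups. Irs2 was 1.18-fold higher in low protein sham than in control sham pancreas, and Mtor differed by -0.13 after STZ in low protein and by 0.15 in control diet offspring (log2). The brightest probe sets of Insr, Irs1, Foxo1 and Rptor overlapped between the groups of every comparison.

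The insulin response sequence CAAAACA, which reads as TGTTTTG on the other strand and through which FOXO proteins bind several insulin-regulated genes was searched on both strands of the 250 bases before each annotated start, because Irs2 is a known FOXO target in liver. RefSeq held 11 such windows for 7 member genes, in build GRCm38.p6. The sequence was present upstream of both adaptor genes and in 5.56% of all 32851 windows of this length. The windows of Irs1 (chr1:82291440-82291689, minus strand) and Irs2 (chr8:11008930-11009179, minus strand) are shown 5′ to 3′ because only these 2 of the 7 genes hold it, with the matches in capitals.
Irs1: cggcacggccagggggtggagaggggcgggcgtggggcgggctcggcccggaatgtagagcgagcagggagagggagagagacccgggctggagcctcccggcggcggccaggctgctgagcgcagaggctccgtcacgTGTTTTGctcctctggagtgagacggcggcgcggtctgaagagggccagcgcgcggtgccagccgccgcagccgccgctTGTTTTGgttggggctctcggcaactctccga
Irs2: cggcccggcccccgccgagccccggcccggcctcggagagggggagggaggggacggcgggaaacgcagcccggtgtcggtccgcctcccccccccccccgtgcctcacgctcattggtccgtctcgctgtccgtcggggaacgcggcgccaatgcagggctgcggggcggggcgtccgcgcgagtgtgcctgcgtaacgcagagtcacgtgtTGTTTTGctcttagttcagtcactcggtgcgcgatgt
Counted from the annotated start, the matches in Irs1 begin at positions -111 and -32, and the single match in Irs2 begins at -37. The FOXO consensus GTAAACA, on the other strand reading TGTTTAC, occurred in 3.17% of all windows and among members only upstream of Akt1 (-161). The amino acid response element TGATGNAA, on the other strand reading TTNCATCA, occurred in 3.45% of all windows and among members only in 1 of 4 Akt2 windows (-85). A match is a description of these letters and not a binding site.

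The receptor gene Insr (chromosome 8, 3150922 to 3279649) read 9.53, 9.40 and 9.93 (log2 signal of its brightest probe set 1434446_at) in low protein STZ arrays, 9.51, 9.65 and 9.40 in low protein sham, 9.09 and 9.90 in control STZ, and 10.17, 9.21 and 9.50 in control sham arrays. The highest and the lowest of all 11 arrays were both from the control diet, and all groups overlapped. The group means lay within 0.13 of each other (9.62 ± 0.28, 9.52 ± 0.13, 9.49 ± 0.58 and 9.62 ± 0.49, SD, in the same order), so the spread between control pups of a group exceeded any difference between groups. The dimmer probe set 1450225_at ranged only from 7.58 to 7.98.

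Irs1 and Irs2 encode the main adaptors of the receptor, and β cells depend mostly on IRS2. Irs1 (chromosome 1, 82233105 to 82291439, probe set 1423104_at) read 8.78, 8.50 and 8.90 in low protein STZ, 8.73, 8.69 and 8.78 in low protein sham, 8.79 and 8.92 in control STZ, and 8.81, 8.77 and 8.97 in control sham arrays. Both control STZ arrays lay above all low protein sham arrays, by a narrow margin, and every other pair of groups overlapped. The group means were 8.73 ± 0.20, 8.73 ± 0.05, 8.86 ± 0.09 and 8.85 ± 0.10 in the same order. Irs2 (chromosome 8, 10984681 to 11008929, probe set 1443969_at) read 8.42, 8.41 and 8.48 in low protein STZ, 8.39, 8.43 and 8.61 in low protein sham, 8.47 and 8.31 in control STZ, and 8.18, 8.29 and 8.23 in control sham arrays. Control sham was lowest, below every array of each other group, while the other 3 groups overlapped with means of 8.44 ± 0.04, 8.48 ± 0.12 and 8.39 ± 0.11, against 8.24 ± 0.05 in control sham.

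Akt1 (chromosome 12, 112653821 to 112674884) and Akt2 (chromosome 7, 27591552 to 27640826) encode the kinases downstream of the adaptors, and AKT2 is the form most tied to glucose uptake. Akt1 read 10.40, 10.84 and 10.87 on 1416657_at in low protein STZ, 10.95, 10.79 and 10.76 in low protein sham, 10.90 and 10.995 in control STZ, and 10.90, 10.60 and 10.997 in control sham arrays. For Akt2 (1424480_s_at) the values were 9.98, 10.22 and 10.34 in low protein STZ, 10.33, 10.19 and 10.30 in low protein sham, 10.43 and 10.39 in control STZ, and 10.63, 10.16 and 10.20 in control sham arrays. For both kinases the order of the group means was control STZ highest and low protein STZ lowest, with neighbours in the order overlapping. Foxo1 (chromosome 3, 52268337 to 52350109), the transcription factor that AKT keeps out of the nucleus, read 9.65, 9.65 and 9.86 on 1416982_at in low protein STZ, 9.79, 9.67 and 9.77 in low protein sham, 9.62 and 9.69 in control STZ, and 9.69, 9.47 and 9.61 in control sham arrays. Its groups overlapped, and the means of the low protein groups (9.72 ± 0.12 and 9.74 ± 0.07) were above those of the control groups (9.65 ± 0.05 and 9.59 ± 0.11).

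Mtor (chromosome 4, 148448582 to 148557685) encodes the kinase of both mTOR complexes. On 1436267_a_at it read 10.24, 10.30 and 10.44 in low protein STZ, 10.52, 10.42 and 10.42 in low protein sham, 10.46 and 10.56 in control STZ, and 10.37, 10.37 and 10.36 in control sham arrays. The 3 control sham arrays were nearly identical, both control STZ arrays and all low protein sham arrays lay above them, and low protein STZ spanned them. Rptor (chromosome 11, 119602905 to 119899591) encodes RAPTOR, the scaffold that brings substrates such as 4E-BP1 to mTORC1. It read 9.97, 9.92 and 10.13 on 1434619_at in low protein STZ, 10.00, 10.06 and 10.19 in low protein sham, 10.06 and 10.05 in control STZ, and 10.32, 9.83 and 10.05 in control sham arrays. Its group means, 10.01 ± 0.11, 10.09 ± 0.10, 10.06 ± 0.0025 and 10.07 ± 0.24, lay closer together than the arrays of control sham.

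Eif4ebp1 (chromosome 8, 27260327 to 27275656) had the widest gap between diets among the 9 brightest probe sets. On 1434976_x_at it read 10.53, 11.09 and 11.20 in low protein STZ, 11.13, 10.73 and 11.01 in low protein sham, 11.33 and 11.62 in control STZ, and 11.50, 11.40 and 11.33 in control sham arrays. No low protein array reached the lowest control diet array, whichever injection was given. The second probe set, 1417562_at, read 10.57, 11.15 and 11.03 in low protein STZ, 11.08, 10.82 and 11.05 in low protein sham, 11.56 and 11.37 in control STZ, and 11.43, 10.92 and 11.05 in control sham arrays. There the 2 control STZ arrays stood above all low protein arrays, whereas control sham overlapped with both low protein groups. The third, 1417563_at, lay between 8.77 and 8.96 on all arrays and did not follow the other two. In Affymetrix naming an x_at suffix marks a set in which some probes may also bind other transcripts, which limits how surely 1434976_x_at reads Eif4ebp1 alone.

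**Figure D1:**
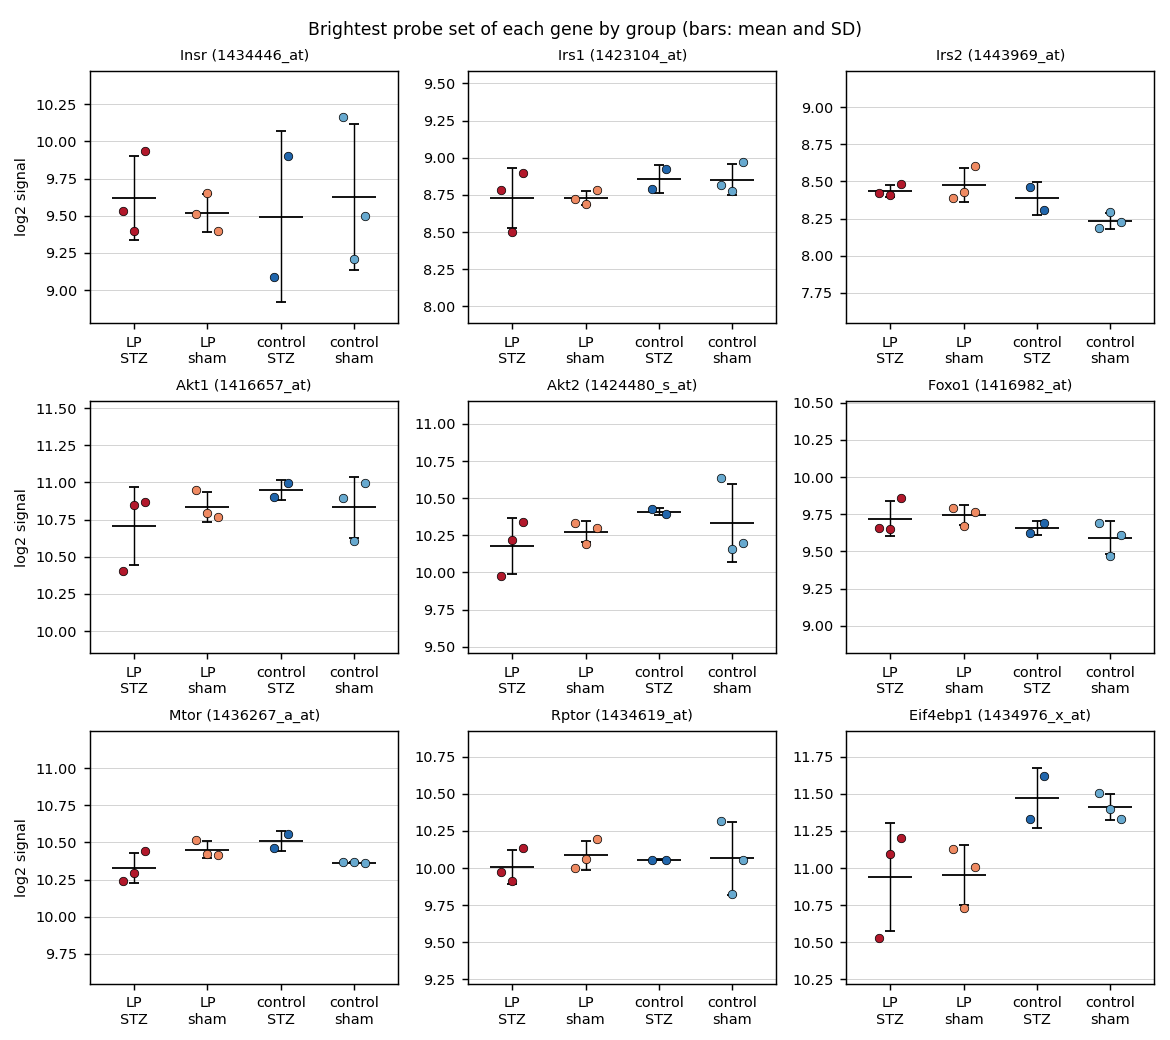
Log2 signal of the brightest probe set of each gene (vertical axes, all spanning the same range) on the 11 arrays, by group (LP, low protein); points are arrays, the horizontal line is the group mean and the bar its SD. Eif4ebp1 has all 6 low protein arrays below all 5 control diet arrays. The highest array is control sham 1 for Insr, Akt2 and Rptor, and control sham 3 for Irs1 and Akt1.

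Comparing low protein with control diet offspring asks what protein restriction before birth leaves in the pancreas weeks later. On average over injections Eif4ebp1, the translation brake, was lower in low protein pancreas and Irs2 higher, while the other 7 genes had no probe set at an unadjusted p under 0.05. Eif4ebp1 averaged 10.95 ± 0.26 (SD, n = 6) in low protein and 11.44 ± 0.12 (n = 5) in control diet pancreas on 1434976_x_at. The log2 difference was -0.49 ± 0.13 (SE, 95% interval -0.78 to -0.21), with an unadjusted p of 0.00285 and an adjusted p of 0.129 from limma over all probe sets. The groups were apart on this probe set and on no other member, and 2.72% of all tested probe sets were apart, 2.19% with low protein lower. On 1417562_at the difference was -0.35 ± 0.13 (limma adjusted p = 0.264), and on 1417563_at it was 0.03, so the 3 probe sets of the gene disagreed in sign. Irs2 averaged 8.46 ± 0.08 (n = 6) in low protein and 8.30 ± 0.11 (n = 5) in control diet pancreas. The limma contrast, which weights sham and STZ groups equally, was 1.11-fold higher (log2 difference 0.14 ± 0.06, limma adjusted p = 0.326). The Irs2 difference was 0.24 ± 0.08 in sham animals but 0.05 ± 0.09 after STZ, where the arrays of the 2 diets overlapped. These 3 of 24 members at an unadjusted p under 0.05 compare with 13.4% of all tested probe sets, so the count itself is near the background. The median difference of the 24 members was -0.01, with 10 higher and 14 lower. Over all tested probe sets the median was -0.03 and 62.28% were lower.

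The Eif4ebp1 difference depended on the scaling. Cyclic loess scaling of the arrays gave -0.28 in place of -0.49 on 1434976_x_at and -0.15 in place of -0.35 on 1417562_at, with the same direction. Without low protein STZ 1, the lowest array, the first of these was -0.39. The acinar markers differed in the same direction as Eif4ebp1, and all 7 were lower in low protein pancreas. Of these, 5 (Cpa1, Cela1, Cel, Ctrb1 and Prss2) read 14.75 to 15.82, near the top of the arrays (highest signals 15.85 to 15.91) and nearly alike on each array, so no size is drawn from them. The other 2, taken apart after their values were seen, are regulators of acinar cells. Ptf1a differed by -0.68 ± 0.22 (SE) and Bhlha15 by -0.29 ± 0.20, with limma adjusted p = 0.216 and 0.564. The mean of Ptf1a and Bhlha15 ranged from 10.74 to 11.94 in low protein STZ, 11.02 to 11.64 in low protein sham, 11.70 to 11.90 in control STZ and 11.66 to 12.01 in control sham. On low protein STZ 1 both this mean and Eif4ebp1 were the lowest of the 11 arrays. The 7 tested β-cell markers were also all lower on average over injections (median -0.42), with a mean level of 9.02 to 9.21 in low protein STZ, 9.06 to 9.53 in low protein sham, 9.12 to 9.15 in control STZ and 9.87 to 10.22 in control sham. Markers of alpha, delta and PP cells were lower in 3 of 3 (median -0.47), of stroma in 7 of 7 (-0.14) and of endothelium in 6 of 6 (-0.15), and those of T cells were higher in 3 of 3 (0.22). None of these markers passed after limma adjustment, and the part of these cell types in the result was not tested.

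**Figure D2:**
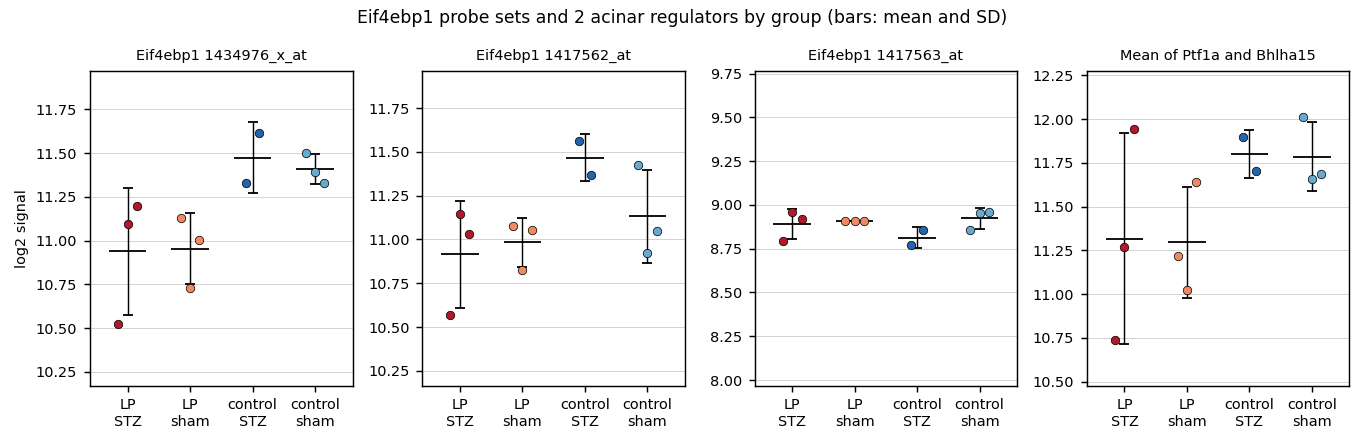
Log2 signal of the 3 Eif4ebp1 probe sets and the mean of the acinar regulators Ptf1a and Bhlha15 (vertical axes, all spanning the same range) on each of 11 arrays by group (LP, low protein), with group mean and SD. The first probe set and the regulators are both lowest on low protein STZ 1, the regulators overlap between diets, and 1417563_at stays between 8.77 and 8.96.

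Within sham animals, low protein against control diet gave 2 members at an unadjusted p under 0.05 where 9.52% of all tested probe sets had one. Irs2 was 1.18-fold higher in low protein sham pancreas (log2 difference 0.24 ± 0.08 SE, 95% interval 0.07 to 0.41, limma adjusted p = 0.356). Eif4ebp1 was 1.37-fold lower on 1434976_x_at (-0.45 ± 0.17, interval -0.83 to -0.08, limma adjusted p = 0.428), and -0.29 with loess scaling. Foxo1 followed with 0.15 ± 0.09 on 1416982_at (limma adjusted p = 0.624). The arrays were apart on 3 members, Irs2 and Mtor 1436267_a_at higher and Eif4ebp1 1434976_x_at lower, whereas 15% of all tested probe sets were apart. Acinar markers were lower in 7 of 7 here as well, 5 of them those near the top of the arrays. Ptf1a differed by -0.75 ± 0.30 and Bhlha15 by -0.24 ± 0.26. The β-cell markers were lower in 6 of 7 (median -0.41), and 56.97% of all tested probe sets were lower. Without control sham 2 the Foxo1 difference was 0.09.

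After STZ, low protein against control diet had Eif4ebp1 lower on both of its bright probe sets and Mtor lower on its brightest. Eif4ebp1 was 1.47-fold lower on 1417562_at (log2 difference -0.55 ± 0.19 SE, limma adjusted p = 0.466) and 1.45-fold lower on 1434976_x_at (-0.53 ± 0.19, limma adjusted p = 0.488). Mtor differed by -0.18 ± 0.08 (limma adjusted p = 0.577). These are the 3 members at an unadjusted p under 0.05, all lower, in a comparison where 8.49% of all tested probe sets had such a p and 6.95% had one with low protein lower. The 3 low protein arrays lay below both control arrays on 6 members: the brightest probe sets of Akt1, Akt2 and Mtor, Foxo1 1416981_at and 2 of Eif4ebp1. With 3 arrays against 2, 22.6% of all tested probe sets were apart and 15.6% were apart with low protein lower. Loess scaling gave -0.31, -0.28 and -0.03 for the 3 differences in the same order, and without low protein STZ 1 the Eif4ebp1 1434976_x_at difference was -0.33. Acinar markers were again lower in 7 of 7, with Ptf1a at -0.61 ± 0.33 and Bhlha15 at -0.35 ± 0.29. The other 5 are those near the top of the arrays, and 62.33% of all tested probe sets were lower.

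Setting STZ against sham asks how the pathway stands at 30 days after a neonatal β-cell toxin. In the control diet the members leaned upwards after STZ, but 0 of 24 had an unadjusted p under 0.05, against 4.04% of all tested probe sets. The smallest p belonged to Mtor, at 0.15 ± 0.08 higher (log2 difference, SE; limma unadjusted p = 0.0964). Eif4ebp1 1417562_at differed by 0.34 ± 0.19 and Irs2 by 0.15 ± 0.09 (limma adjusted p = 0.9998 for each of the 3). Of the 24 members, 18 were higher and 6 lower with a median of 0.06. Over all tested probe sets the median was 0.00 and 48.69% were lower. On 4 members (Mtor 1436267_a_at, Irs2, Akt1 1440950_at and Insr 1450225_at) both STZ arrays lay above the 3 sham arrays. Over all tested probe sets 16.3% were apart and 8.51% were apart with STZ higher. Irs2 was 0.07 higher without control STZ 1 and 0.23 higher without control STZ 3, so that 1 array decided the size. The β-cell markers were lower after STZ in 6 of 7 (median -0.31), and their part in these values was not tested.

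In low protein offspring, STZ against sham gave 0 of 24 members with an unadjusted p under 0.05, against 2.33% of all tested probe sets. Mtor differed by -0.13 ± 0.07 (SE), and Akt1 1425711_a_at, a probe set dimmer than the brightest of its gene, by -0.24 ± 0.16. Loess scaling gave -0.06 for Mtor, and leaving out low protein STZ 3 gave -0.36 for the Akt1 probe set. Akt2 1455703_at differed by 0.09 ± 0.08, while the other 2 Akt2 probe sets were lower, by -0.10 and -0.13. Without low protein STZ 3 it differed by 0.0031, and without low protein STZ 1 by 0.13, so that 1 array decided its size. In all, 7 members were higher and 17 lower (median -0.04, against -0.02 over all tested probe sets, of which 57.61% were lower). With loess scaling the members were 11 higher and 13 lower. No member had its arrays apart, and 7.3% of all tested probe sets did. Averaged over diets, STZ left 0 of 24 members at an unadjusted p under 0.05 (3.1% of all tested probe sets). The 3 smallest p were those of Akt1 1440950_at (0.09 ± 0.07), Eif4ebp1 1417563_at (-0.06 ± 0.05) and Eif4ebp1 1417562_at (0.13 ± 0.13). The 95% intervals of all 24 averages reached at most 1.36-fold lower and 1.34-fold higher. Arrays were apart for 0 members and for 0.158% of all tested probe sets.

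**Figure D3:**
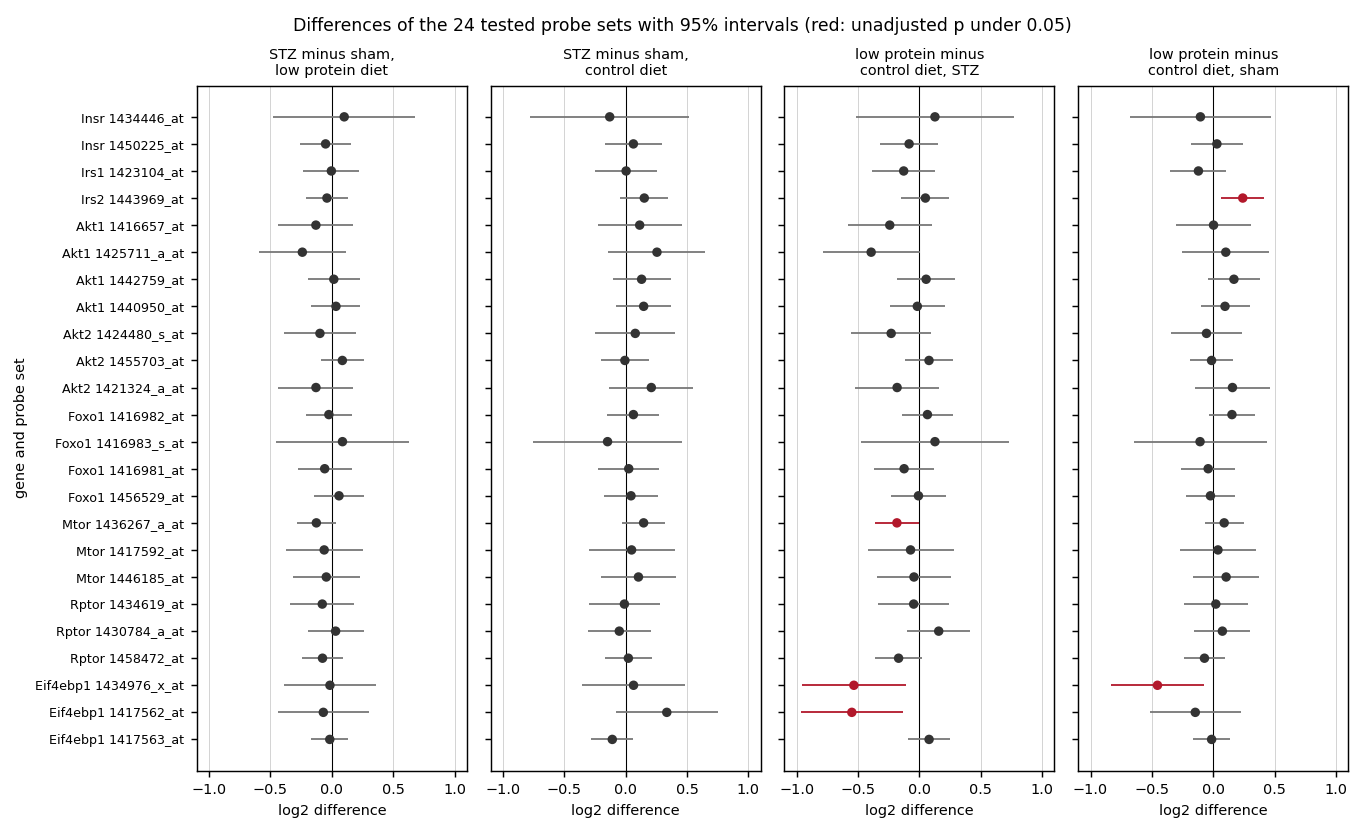
Log2 difference (horizontal axes) of each of the 24 tested probe sets in the 4 pairwise comparisons, with the 95% interval of the limma fit; red marks an unadjusted p under 0.05. Red appears for Irs2 and Eif4ebp1 in sham animals and for Mtor and 2 Eif4ebp1 probe sets after STZ, in the diet comparisons alone.

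A further contrast took the STZ difference in low protein offspring and subtracted the one in control diet offspring. Mtor 1436267_a_at was the only member at an unadjusted p under 0.05, which 3.49% of all tested probe sets had. Its STZ difference was -0.13 in low protein and 0.15 in control diet offspring, so these differed by -0.27 ± 0.11 (SE; limma unadjusted p = 0.0287), which did not pass over all probe sets. The other Mtor probe sets gave -0.11 and -0.15 for the same quantity. Akt1 1425711_a_at (-0.50 ± 0.24) and Akt2 1421324_a_at (-0.34 ± 0.21) came next, on probe sets other than the brightest. Without control STZ 1 they were -0.28 and -0.19. Of the 24 members 18 were below 0 (median -0.10), against 55.42% and a median of -0.02 over all tested probe sets. The number of members with an unadjusted p under 0.05 ranged from 0 to 4 over the alternative settings. It was 0 with cyclic loess scaling, with a replicate block, and with trend and robust moderation, and 3 with array weights. It was also 0 without low protein sham 1, without low protein STZ 1 and without low protein STZ 2. Without low protein STZ 3 it was 2, and without control sham 1 it was 4. The comparisons above share arrays (control sham enters 5 of the 7), so their values stand side by side and are not independent.

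How far the members varied together from pup to pup was described within groups. After each group's mean was subtracted, Pearson's r over the 11 arrays among the 36 pairs of brightest probe sets ranged from -0.52 for Insr with Irs2 to 0.80 for Mtor with Eif4ebp1, with a median of 0.41. The part of the overall level of an array, given above, in these r was not tested, and they are descriptions. The 25 pairs of probe sets of the same gene had a median of 0.32, and the 251 pairs of tested probe sets of different genes had one of 0.23. Over the 11 arrays the genes most like Insr were Tbc1d9b (r = 0.96), Tnrc6b (0.94) and Mtss1 (0.93), and 93 of 15888 genes exceeded 0.8. Irs2 was most like Nhsl1 (0.90), Pkd2l2 (0.90) and Cbx8 (0.89), and Mtor most like Bcat2 (0.85), Gna12 (0.85) and Errfi1 (0.84).

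The wider pathway was read from 100 listed partner genes, of which 89 were tested on their brightest probe set. With limma, 0 of 89 passed over all probe sets in any comparison. On average over injections, 13 partners (14.61%) had an unadjusted p under 0.05 in low protein against control diet, 4 higher and 9 lower, close to the 13.4% of all tested probe sets. Genes of the mTOR complexes and their regulators were lower in 25 of 32 (median -0.09), and 5 of these (15.62%) had such a p, all lower. Over all tested probe sets 62.28% were lower. Lamtor5 and Lamtor3 belong to the Ragulator complex, which anchors mTORC1 to the lysosome when amino acids are present. Lamtor5 differed by -0.58 ± 0.14 (SE, limma adjusted p = 0.099) and Lamtor3 by -0.21 ± 0.06 (limma adjusted p = 0.18). The other Lamtor5 probe set gave -0.06.

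The translation and autophagy outputs of mTORC1 were lower in 14 of 17 (median -0.08, against 62.28% and -0.03 over all tested probe sets). None had an unadjusted p under 0.05, which 13.4% of all tested probe sets had. Maf1, a repressor of RNA polymerase III, differed by -0.27 ± 0.12 and Eif4a1, the helicase of the cap-binding complex, by -0.37 ± 0.19. The other Maf1 probe sets gave 0.0086 and -0.135, and those of Eif4a1 gave -0.28 and -0.25. Among AKT, GSK3 and FOXO genes 4 of 13 (30.77%) had such a p, 1 higher and 3 lower, against 13.4% of all tested probe sets. Tbc1d4 (AS160), the AKT substrate that holds back glucose transporter vesicles, differed by 0.25 ± 0.08 on its brightest probe set and -0.14 on its other one. Ywhab, a 14-3-3 protein, differed by -0.51 ± 0.19 on its brightest probe set, and by -0.43 to 0.02 on its others. In the receptor, lipid kinase and brakes list 4 of 27 (14.81%) had such a p, 3 higher and 1 lower, near the 13.4% of all tested probe sets. Pik3cd, a catalytic subunit of phosphoinositide 3-kinase, differed by 0.27 ± 0.06 on 1443798_at (limma adjusted p = 0.0737). That probe set averaged 15.01, near the top of the arrays, so its size is uncertain, and the 4 other tested Pik3cd probe sets, which averaged 6.92 to 9.19, differed by at most 0.05. Ptpn1 (PTP1B), the phosphatase that switches the receptor off, differed by 0.17 ± 0.06 and by -0.10 on its other probe set. Loess scaling gave 0.92 for Pik3cd, -0.30 for Ywhab, -0.17 for Maf1 and -0.11 for Eif4a1, and leaving out low protein STZ 1 gave -0.20 for Eif4a1.

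For STZ against sham in the control diet, 5 partners (5.62%) had an unadjusted p under 0.05, against 4.04% of all tested probe sets. All 5 were higher. The largest was Sgk1, an AKT relative, at 1.27 ± 0.52 (SE), with 11.36 and 12.15 in control STZ and 9.89, 10.53 and 11.03 in control sham arrays. Akt1s1 (PRAS40), an mTORC1 inhibitor that AKT phosphorylates, differed by 0.44 ± 0.15, with 10.40 and 10.13 in control STZ and 9.98, 9.65 and 9.86 in control sham arrays. Both control STZ arrays lay above the 3 control sham arrays for each of these, as on 8.51% of all tested probe sets. The other Akt1s1 probe sets gave 0.40 and 0.05. The remaining partners with such a p were Rps6, the ribosomal protein phosphorylated downstream of mTORC1 (0.24 ± 0.10), the receptor relative Insrr (0.22 ± 0.09) and Irs4 (0.20 ± 0.09). Next in their lists came Stk11 (LKB1), the kinase that activates AMPK, Foxo3 and Lpin1. Stk11 differed by 0.33 ± 0.17, and by 0.07 on its other probe set. Foxo3 differed by 0.35 ± 0.26 and Lpin1 by -0.20 ± 0.10. Leaving out 1 array of the contrast moved Stk11 between 0.21 (without control sham 2) and 0.53 (without control sham 1), Foxo3 between 0.02 (without control STZ 3) and 0.67 (without control STZ 1) and Lpin1 between -0.38 (without control STZ 3) and -0.01 (without control STZ 1). Rps6 was 0.14 higher without control STZ 3. In the contrast of the STZ differences between diets, Akt1s1 gave -0.64 ± 0.20, Rps6 -0.31 ± 0.13 and Depdc5, a subunit of the GATOR1 brake on mTORC1, 0.34 ± 0.14. The other 4 Depdc5 probe sets gave -0.05, 0.20, -0.23 and -0.22, so the gene had no common sign. These 3 of 89 (3.37%) compare with 3.49% of all tested probe sets. The others named by their lists were Sgk1 (-1.34 ± 0.70), Ywhab (0.50 ± 0.38), Ptpn2 (0.46 ± 0.25), Igf1r (0.27 ± 0.15) and Pdcd4 (-0.47 ± 0.31). Another Igf1r probe set gave -0.26 ± 0.12, and the other Ptpn2 probe sets gave 0.0066 and 0.07. The other Ywhab probe sets gave -0.01 to 0.37. Without control STZ 1 Ptpn2 was 0.16, without control sham 2 Pdcd4 was -0.17, without low protein STZ 3 Ywhab was 0.20 and without low protein STZ 1 Sgk1 was -0.86. Averaged over diets, STZ gave 2 partners with an unadjusted p under 0.05, Insrr and Irs4, both higher, or 2.25% against 3.1% of all tested probe sets.

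**Figure D4:**
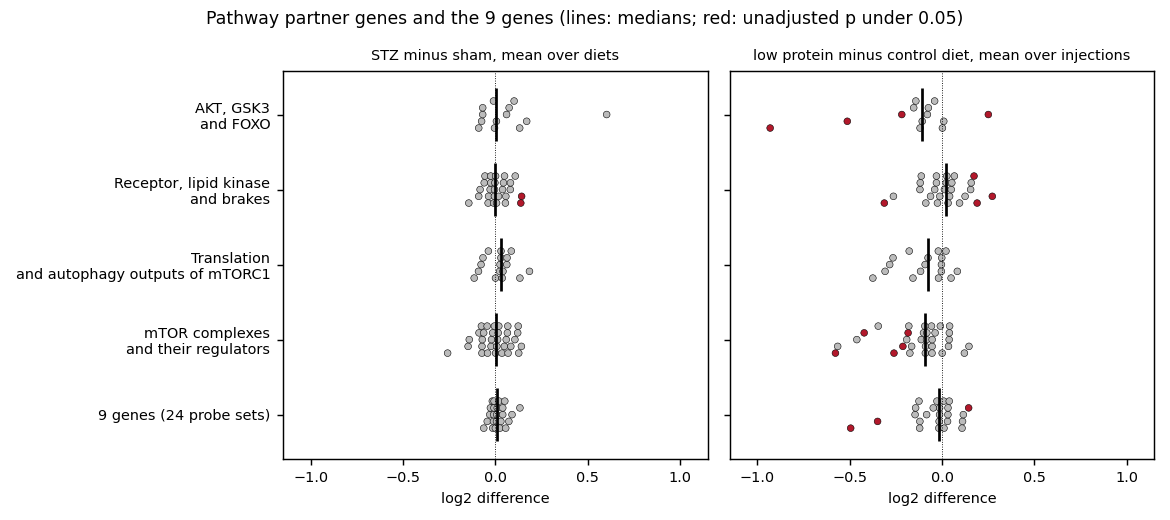
Log2 difference (horizontal axes) of each tested partner gene by list, and of the 24 probe sets of the 9 genes, for STZ minus sham and for low protein minus control diet; black lines are medians and red marks an unadjusted p under 0.05. In the diet panel the median of the mTOR list is -0.09 and that of the 9 genes -0.01, and in the STZ panel 2 partners are red.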

How the data were processed

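RNA of 11 pancreases was hybridised to Affymetrix arrays. The deposited values are on the log2 scale, with 1 value for each probe set and array. Partek 6.5 and RMA are listed, per the submitters' processing notes. A genome build is not given in the sources used here. Probe sets were named from the platform table: 34958 had 1 symbol, 932 several and 9211 none. Those with 1 symbol and a mean above 6.87 (the 0.25 quantile) were tested (27249), which left out 7709. Groups came from the labels.

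All arrays entered 1 limma 3.58.1 fit with a mean for each group in R 4.3.3 (two-sided tests), with Benjamini-Hochberg adjustment over all tested probe sets and a threshold of 0.05. It was tested on simulated data with added differences larger than any reported here, so its power at the reported sizes was not tested. Tables were made with Python 3.11.15 and pandas 2.3.3. The number of arrays limits the precision.

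The members and gene lists were chosen with earlier results of these data known. Values per array are given for the brightest probe set of each gene. A comparison gives each member with an unadjusted p under 0.05, or the 3 smallest p, and, for 3 of the comparisons, the 2 partner genes with the smallest p of each list. Listed partner genes without a tested probe set of their own were not analysed here. Alternatives were a replicate block, only the groups compared, trend and robust moderation, array weights, loess scaling, no dim limit, 1 probe set per gene, and leaving out each array.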

Additional observations from a re-analysis of the deposited data

How the results depend on the processing

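Under 18 alternative settings, 0 members passed in every comparison, and all 359 recomputed log2 differences of named members kept their direction and their side of the threshold. The lowest adjusted p of a member was 0.0565 (Eif4ebp1 1434976_x_at, diet on average over injections, without low protein STZ 3), against 0.0598 with array weights and 0.129 as reported. Over all probe sets, 0 passed as reported, but array weights called 740 for diet on average over injections, and leaving out 1 array called 0 to 433 there (433 without low protein STZ 3, 201 without low protein STZ 1), 0 to 176 for diet in sham animals (176 without low protein STZ 1) and 0 to 1 for STZ in the control diet. Under array weights the partners Tbc1d4 (0.31) and Pik3cd (0.24) passed for diet on average over injections, each on its brightest probe set. In the fit as reported, the other Tbc1d4 probe set gave -0.14 there and the other Pik3cd probe sets at most 0.05. In all, 414 of 416 partner values kept direction and side. Loess scaling gave Pik3cd 0.92 and turned the member split for diet from 10 higher and 14 lower into 15 and 9, for diet in sham animals from 13 and 11 into 17 and 7, for STZ in low protein offspring from 7 and 17 into 11 and 13, and for STZ on average from 13 and 11 into 18 and 6. Members with an unadjusted p under 0.05 numbered 6 with array weights and 1 with loess for diet after STZ (3 as reported), and 0 to 4 for the difference of the STZ effects (1 as reported). The cause was not tested. Same-numbered arrays of different groups did not pair: of 15 pairs 5 had r over 0.1 (range -0.337 to 0.308). With the replicate block 0 members passed, and 2 had an unadjusted p under 0.05 for diet on average over injections (3 without it).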

Other observations

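Insr 1434446_at and Foxo1 1416983_s_at followed each other across the 11 arrays (r = 0.87, and 0.86 after group means were subtracted), although the other probe sets of both genes spread less. Both were lowest on control STZ 1 (9.09 and 8.68) and highest on control sham 1 (10.17 and 9.78). The difference between 3′ and 5′ probe sets of the Gapdh control, a sign of RNA integrity, was lowest on control STZ 1 (0.97 on the log2 scale, against a highest value of 1.85 on low protein STZ 2). On control sham 1 it was 1.41, between these values, and the part of RNA integrity in this pair was not tested. Akt1 1425711_a_at and Akt2 1421324_a_at also followed each other (r = 0.92, and 0.96 after group means were subtracted). These pairs were chosen after their values were seen.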
